A study of Mus musculus with 32 samples.

Results

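Prg4, which encodes lubricin, was examined with 7 other genes of the superficial zone of joint cartilage, Vit, Tspan15, Erg, Cilp, Cilp2, Thbs4 and Creb5. These 8 genes were found by matching mouse symbols to the Ensembl identifiers of the deposited tables, 8 of 41388 genes in all, and the matching used no measured value. RNA had been sequenced from primary chondrocytes, the cells that make cartilage, of LG/J and SM/J mice, inbred strains that the study set against each other for pathways of cartilage regeneration and degeneration. The groups were LG/J females, SM/J females, LG/J males and SM/J males, with 8 libraries each, all at postnatal day 21, with no engineered allele or treatment named in the labels. Cells came from the femoral heads, the ball of the hip joint, were seeded at 100000 per well, grown in 10% serum and taken unpassaged after 4 days, so every group had been in culture. The labels do not say whether the libraries of a group came from separate animals or cultures, so a p-value reflects only the scatter among these libraries, which may be technical.

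The superficial zone is the thin outer layer of articular cartilage, where flattened cells secrete lubricin, a large glycoprotein that lowers friction between joint surfaces and keeps them from sticking. Cells of this layer descend from the joint-forming interzone of the embryo and act as a source of chondrocytes in the growing joint. In bovine chondrocytes the transcription factor CREB5 is needed for lubricin expression, and in mice the ETS family factor Erg helps to keep articular chondrocytes in a stable, lubricin-producing state. Cartilage from a whole femoral head also holds deeper articular zones and growth cartilage. In such bulk RNA, fewer cells of the superficial layer and less RNA of a gene per cell cannot be told apart.

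Libraries held 15840330 to 25571598 counts. The chondrocyte markers Col2a1, Acan and Sox9 were present in every library, at no less than 629.3, 48.21 and 145.6 CPM, the read count scaled to a common library size. The 11 chondrocyte markers summed to 15540 to 40250 CPM in 14 of the LG/J libraries and 9369 to 29330 CPM in SM/J. They summed to only 1671 and 2779 CPM in the LG/J female and the LG/J male numbered 1. A list of 10 inflammatory genes summed to 79430 and 67850 CPM in these LG/J libraries, at most 3450 CPM in the other LG/J libraries and at most 10190 CPM in SM/J. Endothelial cells also express Erg. Their 10 markers summed to 2.631 to 10.98 CPM over all libraries, low sums but no lower than Erg itself, at 0.7654 to 6.873 CPM. Which cells supplied the Erg reads was not tested. The 11 macrophage markers summed to 32.48 to 1652 CPM in LG/J without the libraries numbered 1 and 90.57 to 1183 CPM in SM/J. Of 12 synovial fibroblast markers, 11 had reads in every group, and only Pdpn, a marker of lining fibroblasts, was at 0 everywhere. That 0 does not show that lining fibroblasts were absent. The 10 tendon markers summed to 7178 to 12200 and 9184 to 18190 CPM, the 12 synovial fibroblast markers to 582.2 to 2822 and 554.4 to 4218 CPM, the 6 osteoblast markers to 619.4 to 3850 and 694.7 to 2805 CPM, and the 6 muscle markers to 2.108 to 13.82 and 2.208 to 16.99 CPM, in each case with the same 14 LG/J libraries before those of SM/J. Most of the tendon sum came from Fmod, Bgn and Lum, with means of 5076, 2884 and 1092 CPM in these LG/J libraries and 6445, 3378 and 2266 CPM in SM/J. The tendon genes Scx, Tnmd and Mkx averaged only 1.988, 0.9979 and 9.231 CPM, and 2.754, 0.4062 and 11.89 CPM in SM/J. The part of these cells in any result was not tested.

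Upstream sequences are shown for Creb5, Thbs4, Cilp and Cilp2, whose levels were low in the same LG/J libraries as Prg4, and for Tspan15, which did not follow them. RefSeq start sites of GRCm38.p6 were given for 6 of the 8 members. Each line holds the 250 bases before a start, 5′ to 3′ on the strand of the gene. Creb5 has an upstream start, with the window chr6:53287053-53287302 on the plus strand, and a downstream start, with the window chr6:53573124-53573373. The other windows are chr10:62231219-62231468 for Tspan15, chr13:92794819-92795068 for Thbs4 and chr8:69887393-69887642 for Cilp2, all on the minus strand, and chr9:65264930-65265179 for Cilp on the plus strand. The RefSeq start of Cilp2 lies 295 bases inside the gene as deposited, so its window falls within the counted gene model. Capitals mark matches, on either strand, to 4 motifs picked after the sequences had been seen, namely the cAMP response element TGACGTCA (CRE), the AP-1 site TGANTCA, the ETS site GGAAGT and the forkhead site GTAAACA.
Creb5, upstream start: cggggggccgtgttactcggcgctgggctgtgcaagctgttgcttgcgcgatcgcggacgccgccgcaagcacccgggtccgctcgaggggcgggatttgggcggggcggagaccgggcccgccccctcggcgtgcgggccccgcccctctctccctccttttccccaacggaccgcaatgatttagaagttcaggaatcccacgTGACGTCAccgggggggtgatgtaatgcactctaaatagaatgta
Creb5, downstream start: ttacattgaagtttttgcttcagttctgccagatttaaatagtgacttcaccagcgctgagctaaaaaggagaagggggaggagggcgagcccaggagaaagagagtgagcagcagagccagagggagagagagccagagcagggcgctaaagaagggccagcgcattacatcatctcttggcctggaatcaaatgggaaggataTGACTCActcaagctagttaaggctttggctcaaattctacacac
Tspan15: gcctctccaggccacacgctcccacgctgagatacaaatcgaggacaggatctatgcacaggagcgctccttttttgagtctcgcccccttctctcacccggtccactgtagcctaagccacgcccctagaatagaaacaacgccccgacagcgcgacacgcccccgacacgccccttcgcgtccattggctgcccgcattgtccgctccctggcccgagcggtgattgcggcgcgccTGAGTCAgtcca
Thbs4: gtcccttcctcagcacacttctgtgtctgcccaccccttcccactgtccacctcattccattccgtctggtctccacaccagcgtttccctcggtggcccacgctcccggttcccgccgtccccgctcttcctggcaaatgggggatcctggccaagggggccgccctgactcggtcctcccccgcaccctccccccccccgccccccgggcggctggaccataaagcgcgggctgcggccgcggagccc
Cilp: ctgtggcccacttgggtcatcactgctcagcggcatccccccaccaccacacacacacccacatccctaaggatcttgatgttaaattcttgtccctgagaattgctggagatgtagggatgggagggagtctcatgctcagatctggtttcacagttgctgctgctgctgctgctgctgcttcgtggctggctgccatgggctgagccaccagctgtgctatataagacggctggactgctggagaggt
Cilp2: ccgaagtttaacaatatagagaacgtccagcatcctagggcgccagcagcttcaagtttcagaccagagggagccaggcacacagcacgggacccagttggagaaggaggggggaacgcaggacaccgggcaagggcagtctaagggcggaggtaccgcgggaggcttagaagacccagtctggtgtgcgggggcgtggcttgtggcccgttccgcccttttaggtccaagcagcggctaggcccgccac
The upstream Creb5 window held a CRE 45 bases before the start, the element that proteins of the CREB family bind, and 1.55% of 32851 such windows in the genome held one. The downstream Creb5 window and the Tspan15 window held an AP-1 site, 45 and 12 bases before their starts, as did 6.75% of all windows. No window of these genes, nor any of the 3 windows of Erg, held the ETS site GGAAGT, found in 19.7% of all windows, or the forkhead site, found in 3.17%. The shorter ETS core GGAA was not searched for, and it does occur in printed windows, such as those of Creb5. A match is a description of letters, not of binding, and no match says only that these letters are not in the window. The deposited tables place Creb5 (ENSMUSG00000053007) at GRCm38 chr6:53573384-53696007, so the counted gene model begins 10 bases after the first base of the downstream transcript.

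Prg4 (ENSMUSG00000006014, chr1:150449412-150466165, minus strand) was the most abundant member per length. In RPKM, the deposited unit that divides the CPM by gene length, it averaged 279.9 ± 286.6 in LG/J and 86.44 ± 42.18 in SM/J (SD, n = 16 each). Vit, a matrix protein with von Willebrand domains, came next at 93.38 ± 49.48 and 58.47 ± 21.42 RPKM. Creb5 followed at 11.35 ± 6.285 and 9.035 ± 2.917 RPKM, and Thbs4 at 11.2 ± 19.89 and 2.458 ± 1.307 RPKM. Prg4 overlapped Vit in both strains and Creb5 overlapped Thbs4 in both. Vit and Creb5 did not overlap in either strain, with lowest Vit values of 35.44 and 24.31 RPKM and highest Creb5 values of 23.22 and 13.91 RPKM. Erg, Cilp and Cilp2 lay close together, at means of 1.084, 1.092 and 1.08 RPKM in LG/J and 1.192, 0.9526 and 0.7216 RPKM in SM/J, and their ranges overlapped. Tspan15 was lowest, at 0.08301 ± 0.06484 and 0.1682 ± 0.0745 RPKM, with at most 24 reads in any library.

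**Figure D1:**
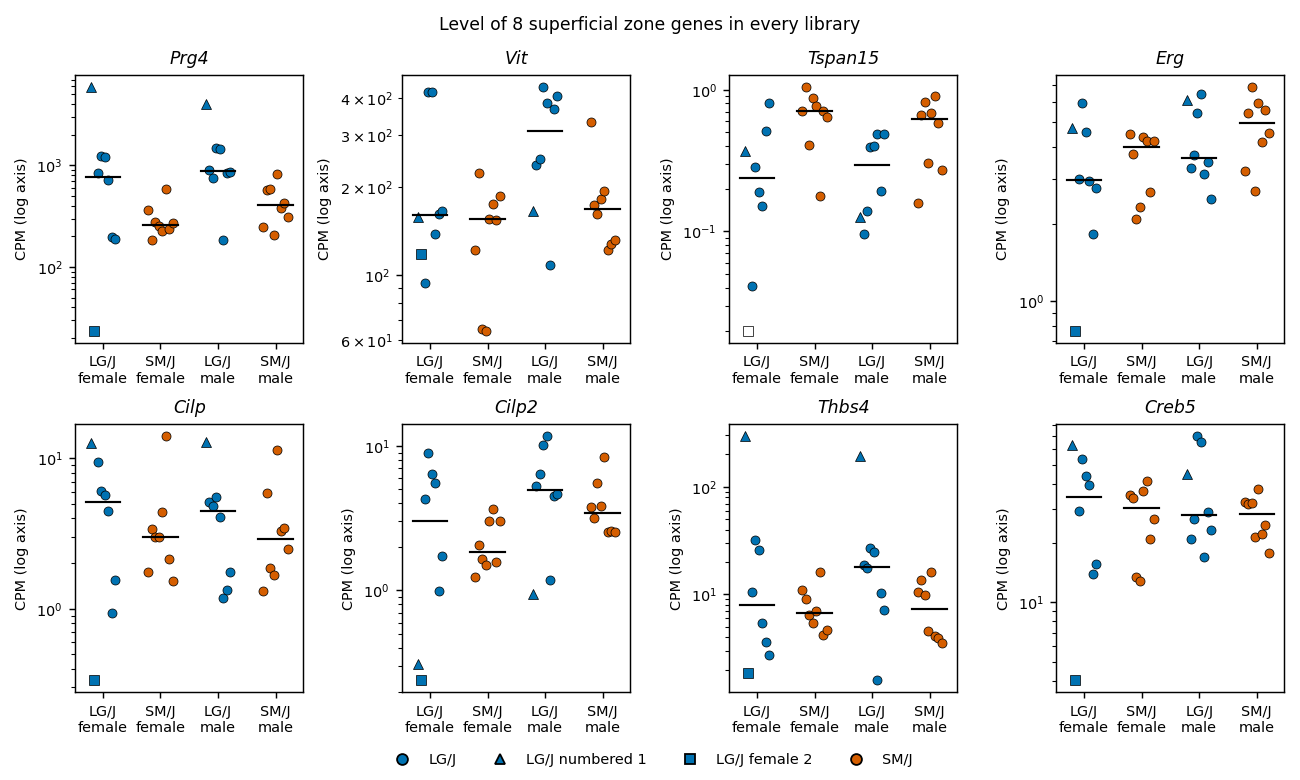
Level of each member in CPM after TMM scaling, on a log axis, in the 8 libraries of each group, with LG/J left of SM/J in each sex. Points are libraries and lines are group medians, triangles mark the LG/J libraries numbered 1 and squares the LG/J female numbered 2, and the open square for Tspan15 is a count of 0 drawn at the foot of the axis. Prg4 and Thbs4 are highest in both triangles, at 5953 and 3987 CPM and at 294.1 and 195.2 CPM.

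Over both sexes 4 of the 8 members differed between the strains (edgeR quasi-likelihood test, adjusted p under 0.05), Prg4, Vit and Thbs4 higher and Tspan15 lower in LG/J. Of all 16136 genes tested, 29.9% were called, 16.4% higher and 13.5% lower, so a call alone did not set a member apart from many other genes. The median log2 fold change of LG/J over SM/J was 0.46 over the members and 0.0203 over all genes. Lubricin itself carried the best-supported difference and Thbs4 the largest, but both drew on the LG/J libraries numbered 1. Without those libraries 3 of the 8 members were called, against 32.2% of 16229 genes. Without the LG/J female numbered 2 as well, 4 were called, against 31.5% of 16482 genes. That library was left out after its low values had been seen, which raises the LG/J means. Fits without it therefore give no support of their own to a higher level in LG/J.

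Prg4 ran from 23.63 through a median of 852.9 to 5953 CPM in LG/J, against 185.4 through 295.8 to 822.7 CPM in SM/J. The strains overlapped, with 10 of the 16 LG/J libraries above every SM/J library and 2 below every SM/J library. Prg4 was 3.57-fold higher in LG/J (log2 fold change 1.83 ± 0.45 SE, edgeR adjusted p = 0.00243). Without the libraries numbered 1 the highest LG/J value was 1491 CPM and the difference was 2.09-fold (1.06 ± 0.35, adjusted p = 0.0219). Without the LG/J female numbered 2 as well it was 2.26-fold (1.18 ± 0.29, adjusted p = 0.00243). With voom in place of edgeR the call was lost (0.84, adjusted p = 0.0740). The 3′ end of Prg4 lies within Tpr on the opposite strand (chr1:150392838-150449935, 107.7 CPM on average), and since the strand setting of the counting is not given, reads from that stretch cannot be told apart.

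Thbs4 (ENSMUSG00000021702, chr13:92751590-92794818, minus strand) encodes thrombospondin-4, a secreted matrix protein of tendon and cartilage. It ran from 1.594 through a median of 14 to 294.1 CPM in LG/J, against 3.575 through 6.731 to 16.23 CPM in SM/J. Of the LG/J libraries 8 lay above all of SM/J and 3 below. Over all libraries Thbs4 was 5.16-fold higher in LG/J (2.37 ± 0.62, adjusted p = 0.00414). Without the libraries numbered 1 the LG/J mean was 13.54 ± 10.64 CPM (SD, n = 14), against 8.163 ± 4.362 CPM in SM/J (n = 16), and the call was lost (0.71 ± 0.39, edgeR adjusted p = 0.166).

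Vit (ENSMUSG00000024076, chr17:78508063-78627409, plus strand), which marks superficial chondrocytes in mouse joints, ran from 93.76 through 200.9 to 438.5 CPM in LG/J, against 64.67 through 158.6 to 332.3 CPM in SM/J. The strains overlapped broadly, with 6 LG/J libraries above every SM/J library. Vit was 1.56-fold higher in LG/J (0.64 ± 0.23, adjusted p = 0.0345). The call was close to the threshold, and 11 of the 32 fits that left out 1 library lost the call (adjusted p up to 0.0793). Without the 6 libraries that held transcripts of both sexes the log2 fold change was 0.20 (adjusted p = 0.495).

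Tspan15 (ENSMUSG00000037031, chr10:62185396-62231218, minus strand), a tetraspanin that partners the protease ADAM10, went the other way. It ran from 0 through 0.2376 to 0.8028 CPM in LG/J, against 0.1586 through 0.674 to 1.05 CPM in SM/J. Of the LG/J libraries 6 lay below all of SM/J, and 4 SM/J libraries lay above all of LG/J. Tspan15 was 2.05-fold lower in LG/J (-1.04 ± 0.34, adjusted p = 0.0203), and 2.02-fold lower without the libraries numbered 1 (adjusted p = 0.0286). Without the 6 libraries that held transcripts of both sexes the call was lost (-0.92, adjusted p = 0.109). Reads were few, 0 to 14 per LG/J library and 3 to 24 per SM/J library, with medians of 5 and 13. Tspan15 thus passed the filter on low counts through its SM/J libraries, where it was higher. The call held in the fit with no filter. The count of 0 in the LG/J female numbered 2 allows up to 0.146 CPM (3 counts of the library total, counting error only).

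The other 4 members did not pass over all 32 libraries. Cilp2 (ENSMUSG00000044006, chr8:69880369-69887687, minus strand), a matrix protein of articular cartilage, averaged 4.575 ± 3.569 CPM among LG/J libraries and 3.127 ± 1.785 CPM among SM/J libraries (SD, n = 16 each; 0.58 ± 0.37, edgeR adjusted p = 0.260). It passed as 1.81-fold higher once all 3 LG/J libraries that stood apart were left out (0.85 ± 0.29, adjusted p = 0.0249). These 3 were the lowest of all 32 libraries in Cilp2, so leaving them out had to raise its LG/J mean. Cilp (ENSMUSG00000042254, chr9:65265180-65280605, plus strand), its paralog and a binder of TGF-beta, averaged 4.86 ± 3.916 and 4.029 ± 3.593 CPM (0.26 ± 0.42, adjusted p = 0.683), and the sign turned without the libraries numbered 1 (-0.12). Creb5 averaged 35.01 ± 20.09 and 27.6 ± 8.832 CPM (0.34 ± 0.27, adjusted p = 0.368), with nearly equal medians of 29.02 and 29.06 CPM. Erg (ENSMUSG00000040732, chr16:95359169-95586593, minus strand) averaged 3.796 ± 1.616 and 4.164 ± 1.354 CPM (-0.13 ± 0.20, adjusted p = 0.676). For these genes the difference was within the spread between libraries, which does not show that the strains were alike.

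**Figure D2:**
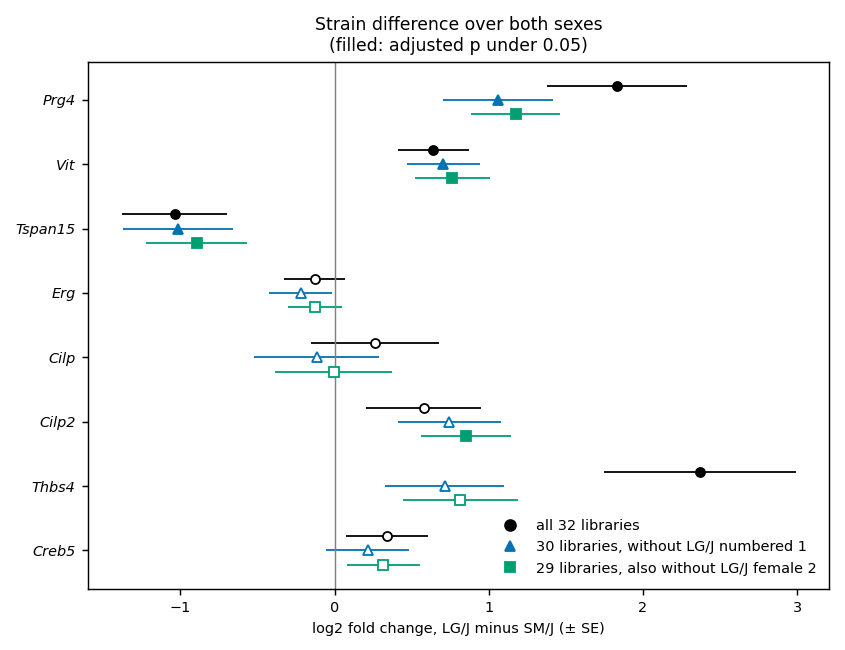
Log2 fold change of each member, LG/J over SM/J and both sexes together, with its SE, in fits of all 32 libraries, of 30 without the LG/J libraries numbered 1 and of 29 also without the LG/J female numbered 2. Filled points passed at an adjusted p under 0.05. Thbs4 moves from 2.37 to 0.71 once the libraries numbered 1 are left out, whereas Vit and Tspan15 stay near 0.7 and -1.

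The SD in CPM was larger in LG/J than in SM/J for every member except Tspan15, a difference that was not tested, and for Cilp it was smaller in LG/J without the libraries numbered 1 (2.611 CPM, against 3.593 CPM in SM/J) and in RPKM. The LG/J libraries fell into separate clusters by Prg4, a split seen in the data with no label behind it. The LG/J female and male numbered 1 were at the top. Another 10 libraries lay between 713.2 and 1491 CPM. The remaining 4, LG/J females 2, 7 and 8 and LG/J male 6, lay between 23.63 and 196.7 CPM. LG/J females 7 and 8 were judged from the data to be a close pair, so fewer than 4 may be independent. Those 4 were also the lowest of the 14 in Cilp2 (at most 1.72 CPM, against at least 4.325 CPM in the 10), in Thbs4 (at most 3.654 CPM, against at least 5.458 CPM) and in Creb5 (at most 17.0 CPM, against at least 21.05 CPM). Cilp lay at most at 1.548 CPM in the 4, with 9 of the 10 above that level, Vit at most at 164.7 CPM, with 8 of the 10 above, and Erg at most at 3.147 CPM, with 7 of the 10 above. Tspan15 reached its LG/J maximum of 0.8028 CPM in a library of the lower cluster, so none of the 10 lay above the 4.

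The chondrocyte markers did not split in that way, summing to 27560 to 40250 CPM in the lower cluster and 15540 to 34870 CPM in the 10. The inflammatory genes did, at 157.2 to 190.4 CPM in the lower cluster and 242.0 to 3450 CPM in the 10, below the levels of the libraries numbered 1 given above. The macrophage markers reached 1652 CPM in LG/J male 6 and at most 72.01 CPM in the other libraries of the lower cluster. Synovial fibroblast markers summed to 1519 to 2503 CPM in the lower cluster and 582.2 to 2822 CPM in the 10. These ranges overlapped, but the medians were 1796 CPM in the lower cluster and 708.5 CPM in the 10. The part of these genes in the split was not tested.

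The libraries numbered 1 stood above the other LG/J libraries in some members and below them in another. Against the median of the remaining 13 LG/J libraries, without female 2, Thbs4 was at 28.1 and 18.7 times in female 1 and male 1, and Prg4 at 7.07 and 4.74 times. Cilp was at 2.81 and 2.85 times, above the range of the others. Creb5 was at 2.19 and 1.57 times and Vit at 0.634 and 0.664 times, both inside that range. Cilp2 was 17.2-fold and 5.58-fold lower than that median, at 0.3082 and 0.9468 CPM, so the Cilp paralogs parted. The ratio of Cilp2 to Cilp reads was 0.0244 (5 to 205) and 0.0739 (15 to 203) in these libraries, 0.461 to 3.36 in the other LG/J libraries and 0.263 to 2.97 in SM/J. Lubricin was at its highest in the libraries with the lowest sums of chondrocyte markers.

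LG/J female 2 was low in nearly every member. It also had the fewest genes with a read, 21214 against 22842 to 26789 in the other libraries, and the highest mitochondrial share of counts, 1.04% against 0.447% to 0.845%, and the part of library quality in its values was not tested. Prg4 was at 23.63 CPM (494 reads), 35.6-fold below the median of the other 13. Cilp2 was 22.1-fold, Cilp 13.4-fold, Creb5 7.17-fold, Thbs4 5.61-fold and Erg 4.33-fold below theirs, and it was the lowest of all 32 libraries for 6 of the 8 members, the exceptions being Vit and Thbs4. Its chondrocyte markers summed to 40250 CPM, the highest of any library.

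**Figure D3:**
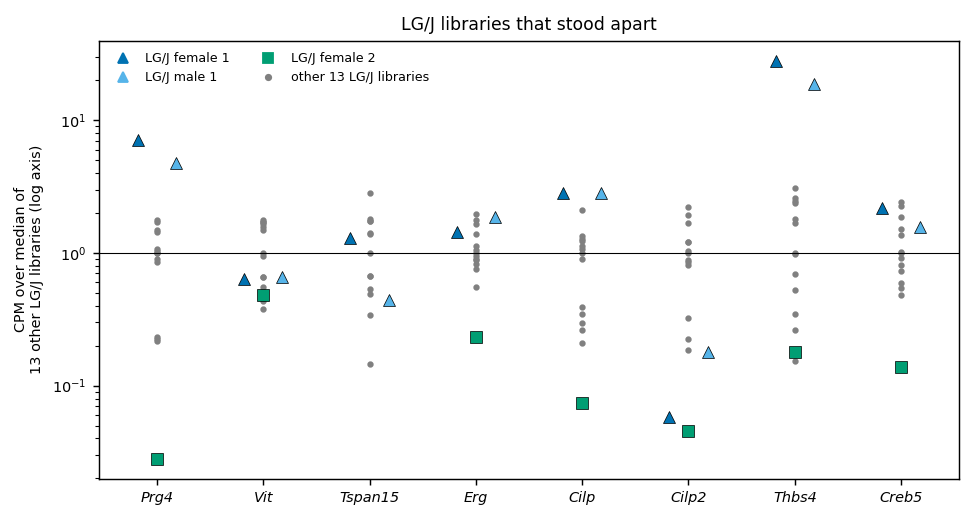
Level of each member in LG/J female 1, LG/J male 1 and LG/J female 2, divided by the median of the other 13 LG/J libraries, on a log axis, with those 13 libraries as grey points and no point for the Tspan15 count of 0. Thbs4 and Prg4 lie far above 1 in the libraries numbered 1 and below it in female 2, and Cilp2 lies below 1 in all 3.

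Whether the members varied together was examined within each strain, on log2 CPM centred on the sex group, since pooling the clusters of LG/J would let the gap between them set the coefficient. Over all 14 LG/J libraries without those numbered 1, across the gap, 17 of 28 pairs of members passed by Spearman's rho and 16 by Pearson's r. Within the 10 LG/J libraries above the gap, none of 28 pairs passed by rho and 6 passed by r (100000 permutations within sex, two-sided, adjusted over 56 pairs of both strains). Choosing these 10 by Prg4 narrows its range, to 713.2 to 1491 CPM, and leaves fewer libraries. Coefficients of Prg4 and of genes that follow it can be lowered by that choice. Erg and Cilp2 had r = 0.928 and rho = 0.830 (permutation p = 0.00062 and 0.00605, adjusted p = 0.021 and 0.0648), and Cilp2 and Creb5 had r = 0.918 and rho = 0.806 (p = 0.00313 and 0.0172, adjusted p = 0.025 and 0.0845). The other 4 that passed by r were Erg with Thbs4 (r = 0.871, rho = 0.842), Erg with Creb5 (r = 0.866, rho = 0.782), Prg4 with Erg (r = 0.880, rho = 0.733) and Vit with Tspan15 (r = 0.768, rho = 0.758), with permutation p adjusted to between 0.021 and 0.0444 for r and between 0.0528 and 0.113 for rho. Prg4 and Thbs4 had r = 0.803 and rho = 0.818 (permutation p = 0.0138 and 0.00447, adjusted p = 0.0554 and 0.0626). Prg4 and Creb5, the lubricin gene and its regulator in bovine cells, had r = 0.853 and rho = 0.600 (permutation p = 0.0147 and 0.0934, adjusted p = 0.0554 and 0.227). Without the 2 libraries farthest from the median of the gene named first, r was 0.85 for Erg and Cilp2, 0.751 for Cilp2 and Creb5, 0.816 for Prg4 and Thbs4 and 0.503 for Prg4 and Creb5, and no pair passed. Among the 10 libraries, 3 pairs of libraries were closer to each other than the rest, so fewer than 10 may be independent.

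In SM/J, over 16 libraries, 1 of 28 pairs passed by rho and 4 by r. Thbs4 and Creb5 had r = 0.698 and rho = 0.726 (permutation p = 0.00166 and 0.00057, adjusted p = 0.025 and 0.0319), and r was 0.599 without the 2 farthest libraries. Erg and Creb5 had r = 0.718 and rho = 0.726 (permutation p = 0.00261 and 0.00283, adjusted p = 0.025 and 0.0528), and r was 0.656 without the 2 farthest. The other 2 that passed by r were Vit with Creb5 (r = 0.756, rho = 0.638, permutation adjusted p = 0.025 and 0.0845) and Prg4 with Cilp (r = 0.683, rho = 0.500, adjusted p = 0.0383 and 0.173). Without the 2 farthest libraries 0 of 28 pairs passed by r and 1 by rho, Thbs4 with Creb5. Prg4 and Creb5 had r = 0.411 and rho = 0.371 (permutation p = 0.0945 and 0.142, adjusted p = 0.189 and 0.296), and Prg4 and Vit had r = -0.105 and rho = -0.209 (permutation p = 0.692 and 0.435, adjusted p = 0.746 and 0.52). Neither pair passed. Whether coefficients differed between the strains was not tested.

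**Figure D4:**
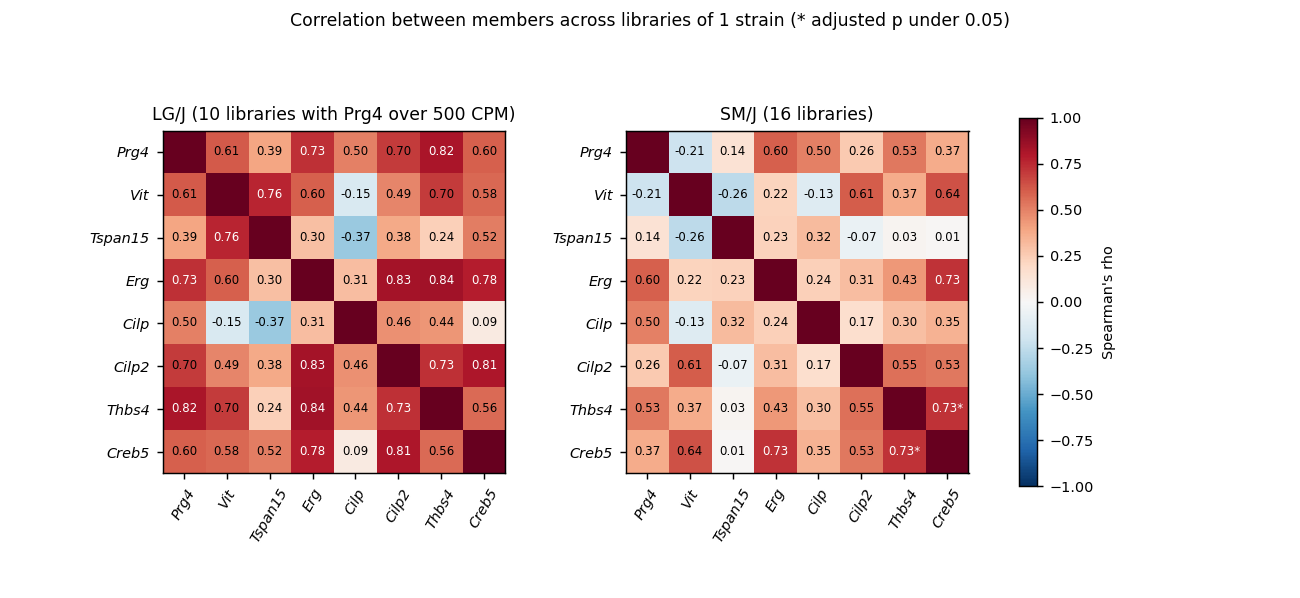
Spearman's rho between members on centred log2 CPM, over the 10 LG/J libraries with Prg4 above 500 CPM and over the 16 SM/J libraries, with a star for an adjusted p under 0.05. Most coefficients are above 0 in both strains, and the only star stands at Thbs4 and Creb5 in SM/J.

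**Figure D5:**
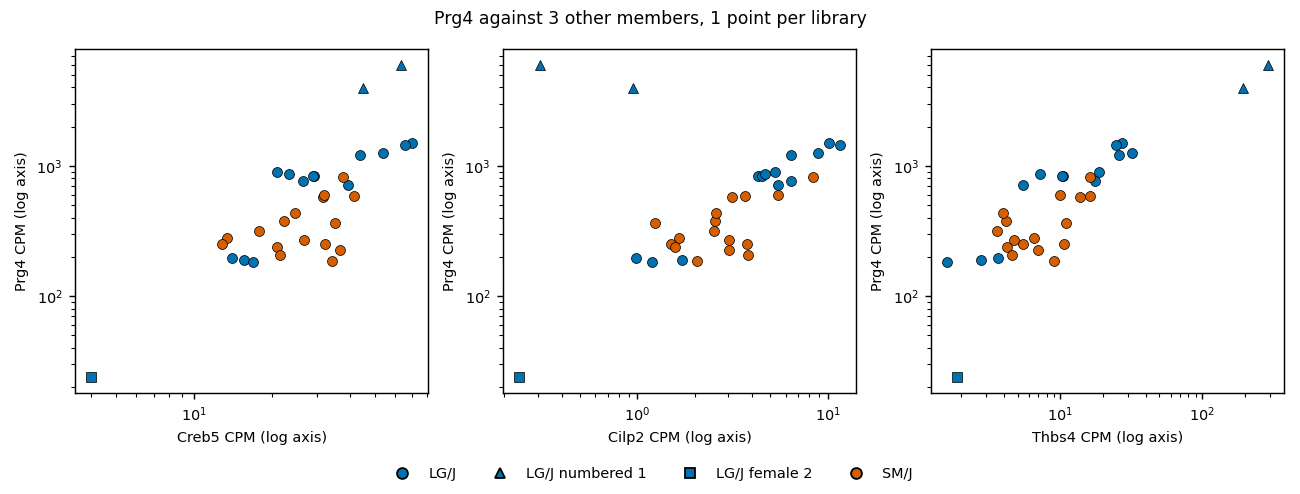
Prg4 against Creb5, Cilp2 and Thbs4 in CPM, with both axes on a log scale and 1 point per library, LG/J in blue and SM/J in orange. The gap in LG/J between 196.7 and 713.2 CPM of Prg4 is visible in each panel, and both libraries numbered 1 leave the trend for Cilp2.

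Genes whose level followed a member most closely were searched among 8106 well-expressed genes over 30 libraries, centred on the 4 groups. These coefficients describe libraries that share the clusters above. Prg4 was followed by Epas1, an oxygen-sensitive transcription factor (rho 0.857), Foxo1, a forkhead factor required for lubricin expression in mouse cartilage (0.853), and Sqle, an enzyme of cholesterol synthesis (0.853). Cilp gave the same leading pair, Foxo1 (0.798) and Epas1 (0.793), with Prg4 next (0.790). Creb5 was followed by Sparcl1 (0.926), the hedgehog co-receptors Cdon (0.892) and Gas1 (0.875). Erg was closest to Creb5 itself (0.838), then Sparcl1 (0.828) and Zfhx4 (0.814). Cilp2 was closest to Sparcl1 (0.806), Creb5 (0.794) and Tnfrsf21 (0.790). Thbs4 was followed by the cholesterol regulator Srebf2 (0.863), the stromelysin Mmp3 (0.861) and Neurl4 (0.844). Vit had another set, Sspn (0.943), Snx24 (0.924) and Sumf2 (0.923), and Prg4 stood at place 2450 in its order (0.297). Tspan15, with few reads, had no close follower, the best being Nhej1 (0.527), Mettl7a1 (0.491) and Arhgdib (0.490).

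Within each sex the members pointed as they did over both, with less support. In males no member passed, against 22.3% of all genes, although 3 had an unadjusted p under 0.05. DESeq2 and voom called 1 each, for which shares over all genes are not given here. Prg4 averaged 1308 ± 1158 CPM for LG/J males and 445.9 ± 206.7 CPM for SM/J males (SD, n = 8 each; 1.55 ± 0.64, edgeR adjusted p = 0.0798). In females Prg4 alone passed, against 13.4% of all genes, at 1296 ± 1938 CPM among LG/J libraries and 299.2 ± 126.2 CPM among SM/J libraries (SD, n = 8 each; 2.12 ± 0.65, edgeR adjusted p = 0.0260). That call was lost without the libraries numbered 1 (15.9% of all genes called; 1.07 ± 0.50, adjusted p = 0.161). It came back without the LG/J female numbered 2 as well (13.9% of all genes called; 1.29 ± 0.42, adjusted p = 0.0364). That female was the lowest of all 32 libraries in Prg4, so leaving it out had to raise the LG/J mean and does not show that the call holds. The strain difference did not differ detectably between the sexes for any member (edgeR, 0 of 8 past the test, 0 at an unadjusted p under 0.05, and 0 with DESeq2 and voom), against 0.0062% of all genes called.

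Between males and females no member passed over both strains, against 3.46% of all genes (edgeR; 1 of 8 at an unadjusted p under 0.05, and 0 called with DESeq2 or voom). The nearest was Erg, at 4.278 ± 1.503 CPM for LG/J males and 3.314 ± 1.675 CPM for LG/J females, and 4.808 ± 1.412 CPM in SM/J males and 3.519 ± 0.9916 CPM for SM/J females (SD, n = 8 each; male minus female 0.41 ± 0.20, edgeR adjusted p = 0.260). Cilp2 averaged 5.599 ± 3.806 CPM for LG/J males and 3.551 ± 3.227 CPM for LG/J females, and 4.04 ± 2.027 CPM in SM/J males and 2.215 ± 0.9033 CPM in SM/J females (0.76 ± 0.37, edgeR adjusted p = 0.268). In 6 libraries transcripts of both sexes occurred together, so these comparisons rest on labels that those libraries did not match fully.

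Genes around the members were counted in lists, beside a median of 0.0203 over all genes. Of all genes 29.9% were called, 16.4% higher and 13.5% lower, and 32.2% without the libraries numbered 1. Each count below is to be read beside these shares. Of 19 regulators of Prg4, 6 were higher and 2 lower in LG/J, with a median log2 fold change of 0.19. The growth factor gene Tgfa was higher (1.33 ± 0.24, edgeR adjusted p = 6.34e-05), as were Nfat5, the factor of the osmotic response (0.47 ± 0.10, adjusted p = 0.000508), and the TGF-beta receptor gene Tgfbr1 (0.57 ± 0.13, adjusted p = 0.00107). Egfr, which encodes the receptor for the product of Tgfa and maintains superficial cells in mice, was lower, at 36.08 ± 16 CPM among LG/J libraries and 58.6 ± 17.21 CPM among SM/J libraries (SD, n = 16 each; -0.70 ± 0.19, adjusted p = 0.00524). Tgfa itself averaged 16.61 ± 9.294 CPM among LG/J libraries and 6.576 ± 2.155 CPM among SM/J libraries. Of 16 tested genes of the joint interzone and other superficial genes, 2 were higher and 1 lower, with a median of 0.42 (-0.18 without the libraries numbered 1). Has2, which makes hyaluronan, was higher (1.06 ± 0.15, adjusted p = 1.08e-06) and Osr1, a factor of the embryonic joint, lower (-0.98 ± 0.24, adjusted p = 0.00232). Gdf5, the classical interzone ligand, did not pass over all libraries but was lower without the libraries numbered 1, at 1.619 ± 0.5618 CPM in LG/J (SD, n = 14) and 3.126 ± 1.384 CPM in SM/J (n = 16; -0.94 ± 0.19, edgeR adjusted p = 0.000231).

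Relatives of the members were mixed in direction, and 29.9% of all genes were called, or 32.2% without the libraries numbered 1. Of 13 CREB and ATF genes, 4 were higher and 1 lower, with a median of 0.0027, led by Creb3 (-0.64 ± 0.08, edgeR adjusted p = 3.09e-07) and Creb1 (0.38 ± 0.07, adjusted p = 2.72e-05). Of 13 tested ETS family genes, 4 were higher and 1 lower, with a median of 0.23. The ETS gene closest to Erg, Fli1, was higher, at 17.23 ± 5.257 CPM among LG/J libraries and 8.945 ± 1.906 CPM among SM/J libraries (SD, n = 16 each; 0.94 ± 0.13, adjusted p = 4.27e-07). Ets1 was higher as well (0.55 ± 0.08, adjusted p = 3.67e-06). Of 8 tested genes from a list of Adam10, Adam17, other tetraspanin partners of Adam10 and Notch receptors, 4 were higher and none lower, with a median of 0.29. They were led by Notch2 (0.28 ± 0.09, edgeR adjusted p = 0.0127), opposite in sign to Tspan15. Without the libraries numbered 1, 3 were higher and Adam10 was lower (-0.40 ± 0.11, adjusted p = 0.00541). Of 6 thrombospondins and their receptors besides Thbs4, only Cd36 was called, lower in LG/J (-1.40 ± 0.49, adjusted p = 0.0305, list median -0.011). Without the libraries numbered 1 that call was replaced by Thbs3, which was higher (0.57 ± 0.14, adjusted p = 0.00232). Of 5 relatives of Vit, 2 were higher and 1 lower, with a median of 0.62. Coch, the closest in structure, was higher (2.12 ± 0.55, adjusted p = 0.00338), but not called without the libraries numbered 1 (0.71, adjusted p = 0.0934), and Matn4 was lower (-1.28 ± 0.36, adjusted p = 0.00763).

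Markers of other cells were counted in the same way, beside 29.9% of all genes called, or 32.2% without the libraries numbered 1. Shares over all genes with DESeq2, voom and the replicate block are not given here. Tendon genes gave 2 higher and 3 lower of 9 tested (median -0.30), with Lum lower (-1.03 ± 0.23, edgeR adjusted p = 0.00082) and Tnc higher (1.2 ± 0.30, adjusted p = 0.00217). Synovial fibroblast genes gave 2 higher and 1 lower of 10 (median 0.11). Thy1 was higher (2.57 ± 0.34, edgeR adjusted p = 4.31e-07) and Dpt lower (-2.51 ± 0.67, edgeR adjusted p = 0.00451). Thy1 was low throughout, averaging 0.6426 CPM over the LG/J libraries (range 0.2884 to 1.43) but 0.1032 CPM over those of SM/J (range 0 to 0.3194). Few reads thus lay behind its fold change, and it passed the filter on low counts through LG/J, where it was higher. Macrophage genes gave 1 lower of 9, Lyz2 (median -1.18), but 5 lower with DESeq2, 6 with voom and 4 with the replicate block. Endothelial genes gave none of 5 (median -0.054), muscle genes none of 2 (median -0.13) and osteoblast genes 1 higher of 6, Phex (median 0.25). Chondrocyte genes gave 3 higher of 11 (median 0.62), 8 higher without the libraries numbered 1, and none with close pairs summed or without the 6 libraries that held transcripts of both sexes. Inflammatory genes gave 6 higher of 9 (median 2.54), but 5 lower and none higher without those libraries (median -1.42), the same libraries in which Prg4 and Thbs4 were highest. With DESeq2 the inflammatory genes gave 1 higher and 2 lower, with voom 1 higher and with the replicate block none. Their part in the members' differences was not tested.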

How the data were processed

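Total RNA from 32 libraries had been made into SMARTer libraries, per the labels' protocols, and the submitters' processing notes name GRCm38, the aligner STAR 2.0.4b and the counter featureCounts 1.45 of Subread. Neither strand setting nor annotation release is given in those notes. For each library the authors deposited whole-number read counts, CPM and RPKM for 41388 genes. The deposited CPM equalled count over library total, and the deposited RPKM that CPM over gene length, within 1.2e-10 and 4.9e-11. Symbols matched 40254 identifiers. The 1134 others held 0.109% of counts.

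Counts were filtered with filterByExpr (16136 genes kept, all 8 members among them), TMM-scaled and fitted in R 4.3.3 with edgeR 4.0.16 (quasi-likelihood, robust, 4 group means, all 32 libraries). Benjamini-Hochberg adjustment ran over all genes, with a threshold of 0.05. Differences are LG/J minus SM/J, or male minus female. Levels are TMM-scaled CPM unless RPKM is named. Alternatives were other scalings and filters, DESeq2 1.42.0, limma 3.58.1 voom, a replicate block and left-out libraries. Correlations used 100000 permutations, whose smallest p is 1e-05. Scripts were tested on simulated data.

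Members and gene lists were chosen with earlier results of these data known. In each list, the called genes of smallest p were named, 3 at most, with the 3 genes of highest rho to each member. Gdf5, Adam10, Thbs3 and Egfr were added after their values were seen, as were the split of LG/J at a Prg4 level of 500 CPM and the fits without LG/J female 2. Which libraries formed close pairs was also judged from the data. Gene positions (GRCm38) come from the deposited tables, and promoter sequences are from RefSeq.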

Additional observations from a re-analysis of the deposited data

Results flagged for a closer look

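In groups of 8 libraries, a library was singled out where its gap to the nearest other exceeded 0.526 of the range of the group. For independent values of a normal distribution, chance does so in about 1 group in 20. In the 32 groups of member and strain by sex, 9 such values were found. CPM need not follow that distribution and the same libraries recur across members, so the 9 cannot be set against that rate. In LG/J female 1, Prg4 was at 5953 CPM, where the rest of the LG/J females reached 1248 CPM, and Thbs4 at 294.1 CPM, where the rest reached 32.15 CPM. In LG/J male 1, Prg4 was at 3987 CPM, where the rest of the LG/J males reached 1491 CPM, Thbs4 at 195.2 CPM, where the rest reached 27.05 CPM, and Cilp at 12.81 CPM, where the rest reached 5.534 CPM. In SM/J female 6, Prg4 was at 584.2 CPM, where the rest of the SM/J females reached 364.1 CPM, and Cilp at 13.97 CPM, where the rest reached 4.386 CPM. In SM/J male 5, Cilp was at 11.3 CPM, where the rest reached 5.871 CPM, and in SM/J male 1, Vit was at 332.3 CPM, where the rest of the SM/J males reached 194.1 CPM.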

How the results depend on the processing

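Of 4 members called over both sexes, 2 were called with voom, 2 with a replicate block and 2 without the 6 libraries in which male and female transcripts occurred together, and 3 or 4 under the other settings, leaving out 1 library included (3 to 4). Prg4 lost its call only with voom, Thbs4 also with the block (0.97, adjusted p = 0.116) and without the LG/J libraries numbered 1, and Tspan15 without the 6 libraries (-0.92, adjusted p = 0.109). Vit lost it with no filter, with the block (adjusted p = 0.0815), with close pairs summed (0.42, adjusted p = 0.236) and without the 6 libraries. Tspan15 was not tested under the filter of a CPM of 1 in 8 libraries. In females, where 1 member was called, upper-quartile factors, DESeq2 and that filter gave 2, and no filter, voom, the block, close pairs summed, leaving out both LG/J libraries numbered 1 and leaving out the 6 libraries gave 0 (0 to 3 leaving out 1 library, and 1 without LG/J female 2 beside those numbered 1). In males DESeq2 and voom gave 1 (0 to 2 leaving out 1 library). Genes called over both sexes numbered 4493 to 5151 leaving out 1 library. Shares over all genes with voom, DESeq2 and the block are not given here. Signs turned for Cilp (voom -0.25 with the sexes together, -0.46 for females and -0.028 for males; without the libraries numbered 1 -0.12, -0.029 and -0.20; without LG/J female 2 as well -0.0065 over both sexes and -0.19 in males), for Creb5 in females (voom -0.20, without the 6 libraries -0.26), and in females without those 6 for Vit (-0.30) and Cilp2 (-0.16), and with voom for Thbs4 (-0.025). For male minus female they turned for Thbs4 (voom 0.25, block 0.086, without the libraries numbered 1 0.22, without female 2 as well 0.13) and Creb5 (close pairs summed -0.019). Leaving out 1 library gave ranges of -0.27 to 0.052 for Erg and -0.026 to 0.89 for Cilp in females, -0.20 to 0.68 for Cilp in males, and, for male minus female, -0.23 to 0.062 for Tspan15, -0.36 to 0.16 for Cilp, -0.78 to 0.87 for Thbs4 and -0.017 to 0.19 for Creb5. The cause was not tested. Whether equal replicate numbers pair libraries is unclear. The labels give no shared source, 30 of 48 same-numbered pairs correlated over 0.1 (range -0.447 to 0.844, median 0.138), 7 of 8 between LG/J males and females, and 7 of 32 libraries correlated best with their own number. Over all 14 LG/J libraries, across the gap in Prg4, 17 of 28 pairs of members passed by rho. There were 10 with the libraries numbered 1, 13 without LG/J female 2, 14 with close pairs averaged and 11 without the 2 farthest. Within the 10 libraries above the gap 0 passed, also without the 2 farthest (0). In SM/J 5 passed beside the 14 LG/J libraries, 3 with close pairs averaged, 1 without the 2 farthest and 1 beside the 10 LG/J libraries. Depth limits Tspan15 most, at 24 reads or fewer.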
